A study of Mus musculus with 8 samples.

Results

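The heat shock proteins described here were 10 genes, found by their symbols among the 27998 gene rows of the count tables. They were Hspa1a, Hspa1b, Dnajb1, Hsph1 and Hsp90aa1, grouped as inducible, and Hspa8, Hsp90ab1, Hspa5, Hspd1 and Hspe1, grouped as constitutive. Their transcripts were counted in microglia, the macrophages native to brain and spinal cord, by droplet single-cell RNA-seq in 8 libraries of lumbar spinal cord from C57BL/6 mice. All animals carried Cx3cr1-yfp-creER/+, which puts YFP and a tamoxifen-dependent Cre under the fractalkine receptor locus, and the study's methods state tamoxifen injection on 5 consecutive days with all experiments 7 days after the first dose. The 4 control libraries came from naive animals and from mice whose sciatic nerves had been cut 1, 2 or 3 days earlier. The 4 A20 cKO libraries came from animals that also carried Tnfaip3 fl/fl (Tnfaip3 encodes the ubiquitin-editing enzyme A20), naive and at the same 3 time points after the cut. Lumbar cords of 3 animals were pooled for each library and YFP-positive cells were sorted with doublet exclusion, so every group was 1 library and no comparison below has a replicate. The 10 genes were chosen by their family and on their measured UMI levels in these libraries, so the levels and ratios given are descriptions without a test.

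Heat shock proteins are molecular chaperones that help other proteins fold, hold unfolded chains in solution and pass damaged chains on to degradation. The inducible genes are raised by heat shock factor 1 within minutes to hours of protein damage or other stress, from a resting level that differs between them, whereas the constitutive genes serve every cell at all times. The grouping does not mean that stress leaves the constitutive genes unchanged. Hspa8 and Hsp90ab1 work in the cytosol, Hspa5 in the endoplasmic reticulum, and Hspd1 with Hspe1 in mitochondria.

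Values are UMIs (counted RNA molecules) of a gene summed over the kept cells of a library and divided by all UMIs of those cells, scaled to 1000000 UMIs (CPM). Because the chemistry counts 1 transcript end per molecule, CPM were not scaled by gene length. Kept cells had at least 1000 UMIs, at least 500 genes and at most 10% mitochondrial UMIs. There were between 558 and 3585 kept cells per library, with 1620481 to 15817426 UMIs and a median of 2780 to 4274 UMIs per cell. Bracketed ranges are 95% intervals (exact Poisson for CPM, exact binomial for log2 ratios, Clopper-Pearson for shares) and cover counting error only, not differences between animals, sorts or libraries. The microglia markers were present throughout, the most widely detected of 10 being found in 98.9% to 100% of cells and the least in 26.7% to 41.0%. Their sum was not even, at 23178 to 28352 CPM in control naive, day 1 and day 2. It was lower, at 13132 to 21022 CPM, in control day 3 and the A20 cKO libraries. The linked libraries, as control day 3 together with all 4 from A20 cKO are called here, shared 256 cell barcodes among their 10 pairs, whereas the other 18 pairs shared 125. The linked libraries also held more RNA of other cell types: summed monocyte markers, of cells that can also carry Cx3cr1, were at 25 to 85.0 CPM against 1.85 to 3.70 CPM in control naive, day 1 and day 2, oligodendrocyte markers at 149 to 202 CPM against 60.1 to 83.3 CPM, neutrophil markers at 28.7 to 51.8 CPM against 0 to 0.142 CPM, and choroid plexus and ependymal markers at 131 to 414 CPM against 0 to 0.285 CPM. Astrocyte markers (8.23 to 26.7 against 2.21 to 3.29 CPM) and neuron markers (4.67 to 11.2 against 1.28 to 4.32 CPM) were also higher. Endothelial markers summed to 27.8 to 48.9 CPM in the linked libraries and to 51.2 CPM in control naive, where Pecam1 was the only 1 of 5 with a UMI. In the linked libraries 0 of the 5 were without UMIs. The least detected there, Cldn5, was in 0.103% to 0.450% of cells, against 0% in control naive, day 1 and day 2. Of the 5 monocyte markers, Plac8 was the most widely detected in every linked library, in 5.01% to 18.0% of cells. The least detected was in at most 0.0342% of cells, and 0 to 2 of the 5 had 0 UMIs. The monocyte sum alone therefore does not show that monocytes were present. Perivascular macrophage and lymphocyte markers summed to no more than 3.67 CPM in any library. Most comparisons between genotypes, and control day 3 against the earlier control libraries, therefore cross this split, so that genotype or day and split cannot be told apart there. The part of this RNA in the members' levels was not tested. Tnfaip3 itself was at 6.83 to 25.3 CPM in the control libraries and at 42.3 to 67.7 CPM in the A20 cKO libraries, which does not check the deletion, since counts at the transcript's end need not cover the deleted part.

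The promoter sequences of the members are shown first, to set the control elements of the inducible and the constitutive class side by side. RefSeq windows (GRCm38.p6) of 250 bases before and 50 after a transcription start were at hand for 7 of the 10 members. Each window was searched on both strands for 3 kinds of element: the heat shock element bound by heat shock factors, as a pair of units (GAANNTTC or TTCNNGAA) or as 3 units (such a pair with a further GAA or TTC, in alternation, 2 bases on, so that it contains the pair), the endoplasmic reticulum stress element (CCAAT and, 9 bases on, CCACG), and the E-box CACGTG, at which MYC family factors can bind. Among all 32851 windows of this length, 15.1% held the pair of heat shock units, 0.603% the 3 units, 0.119% the ER stress element and 7.15% the E-box. The 250 bases upstream of Hspa1a (chr17:34972157-34972406, minus strand) and Hspa1b (chr17:34959239-34959488, minus strand) overlap no annotated exon and were identical at 247 of 250 positions; both are printed 5′ to 3′ because the counts of these genes differ widely, with the heat shock pair, which begins at position -104 from the start in each, in capitals.
Hspa1a: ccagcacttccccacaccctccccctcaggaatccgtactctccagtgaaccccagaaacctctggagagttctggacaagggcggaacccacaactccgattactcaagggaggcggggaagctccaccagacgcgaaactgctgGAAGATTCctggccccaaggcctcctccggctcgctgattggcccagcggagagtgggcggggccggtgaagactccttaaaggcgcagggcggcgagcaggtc
Hspa1b: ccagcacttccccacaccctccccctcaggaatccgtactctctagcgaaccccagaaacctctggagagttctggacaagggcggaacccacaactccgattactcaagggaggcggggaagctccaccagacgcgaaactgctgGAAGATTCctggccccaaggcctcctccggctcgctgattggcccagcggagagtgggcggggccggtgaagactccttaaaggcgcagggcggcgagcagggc
The sites in other members are printed as 30 bases each, with the element in capitals, to show which members held one, whatever their class: a heat shock pair of Hsph1 (chr5:149636351-149636380, minus strand, overlapping its first exon in GENCODE), the overlapping heat shock units between Hspe1 and Hspd1 (chr1:55088051-55088080, plus strand, in an annotated exon of Hspd1), and the ER stress element of Hspa5 (chr2:34772020-34772049, plus strand, also in an annotated exon).
Hsph1: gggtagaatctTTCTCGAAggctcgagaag
Hspe1 and Hspd1: acggtccgTTCTAGAACCTTCCGGAAggcc
Hspa5: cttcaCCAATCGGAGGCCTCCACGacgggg
Hspe1 and Hspd1 lie head to head, so the same 18 bases fall in the windows of both, at position -89 from the Hspe1 start and, read on the other strand, at -144 from 1 of the 2 Hspd1 starts. Hsph1 held a run of 3 heat shock units too, starting at base 37 of its transcript, and an E-box. The other Hspd1 window held an E-box at position -80, and neither of the 2 Dnajb1 windows held any of these elements. A match says only that the letters are there, and none of the sites was measured. Hspa8, Hsp90aa1 and Hsp90ab1 were not in the table of windows.

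Hspa1a (chr17:34969190-34972156, minus strand), the stress-inducible cytosolic Hsp70, was high in 1 library of 8. It had 0 UMIs in control naive, 2185 UMIs or 155 CPM on control day 1 (149 to 162), 5.56 CPM on day 2 and 0.549 CPM on day 3. The A20 cKO libraries were at 4.37 CPM in naive and 1.98, 1.32 and 3.93 CPM on days 1, 2 and 3. The control day 1 interval lay apart from all others, and each of the other libraries overlapped its neighbour in the order of levels. Against the level of 3 UMIs that 0 UMIs in control naive allows, Hspa1a on control day 1 was at least 84.0-fold higher. Set over control day 1, the log2 ratio was -4.80 for control day 2 (-5.13 to -4.50) and -6.18 for A20 cKO day 1 (-7.74 to -5.17).

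Hspa1b (chr17:34956436-34959238, minus strand), its neighbour with a coding sequence identical at 98.2% of bases, had only 0 to 13 UMIs in any library. Its levels were 1.23, 0.925, 0.126 and 0 CPM in control naive and days 1, 2 and 3, and 0, 1.32, 0.659 and 0.787 CPM in A20 cKO naive and days 1, 2 and 3. Neighbours in the order of levels all overlapped. The 3′ UTRs of the copies share no stretch of 25 bases, while 65.5% of all such stretches of the Hspa1a transcript recur in that of Hspa1b. How reads that fit both copies were shared out was not tested, so the split between Hspa1a and Hspa1b is uncertain.

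Dnajb1 (chr8:83608193-83612653, plus strand), an Hsp40 co-chaperone that delivers clients to Hsp70 and speeds its ATPase, had its highest level in the same library. Its levels were 36.4, 238, 62.8 and 34.2 CPM in control naive and on days 1, 2 and 3. The A20 cKO libraries held 49.2, 46.9, 35.6 and 43.7 CPM. Control day 1 and then control day 2 lay apart from the rest, and control day 3 and control naive overlapped. Day 1 over naive gave a log2 ratio of 2.70 in control (2.34 to 3.11) and of -0.07 in A20 cKO (-0.35 to 0.21).

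Hsph1 (chr5:149614287-149636376, minus strand), an Hsp110 that helps Hsp70 release ADP, differed from the other inducible members in its order of libraries. It was at 8.02, 18.7, 11.3 and 11.8 CPM in control naive and on days 1, 2 and 3, on 13 to 263 UMIs. Levels in A20 cKO were 20.7, 38.0, 27.7 and 31.5 CPM. All 4 A20 cKO libraries were thus above all 4 control libraries in level, although the intervals of A20 cKO naive and control day 1 overlapped. Within the linked libraries alone, A20 cKO day 3 exceeded control day 3 by 1.42 (0.96 to 1.87), and by 1.47 without cells whose barcode occurred in more than 1 library.

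Hsp90aa1 (chr12:110690605-110702728, minus strand), the inducible cytosolic Hsp90, stood at 85.2, 376, 226 and 161 CPM in control naive and on days 1, 2 and 3. Its A20 cKO levels were 182, 238, 259.7 and 251 CPM. Every injured library and A20 cKO naive were above control naive, with control day 1 apart at the top. On day 3, when Dnajb1 overlapped its naive level, the log2 ratio of Hsp90aa1 over naive was 0.91 (0.66 to 1.18).

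**Figure D1:**
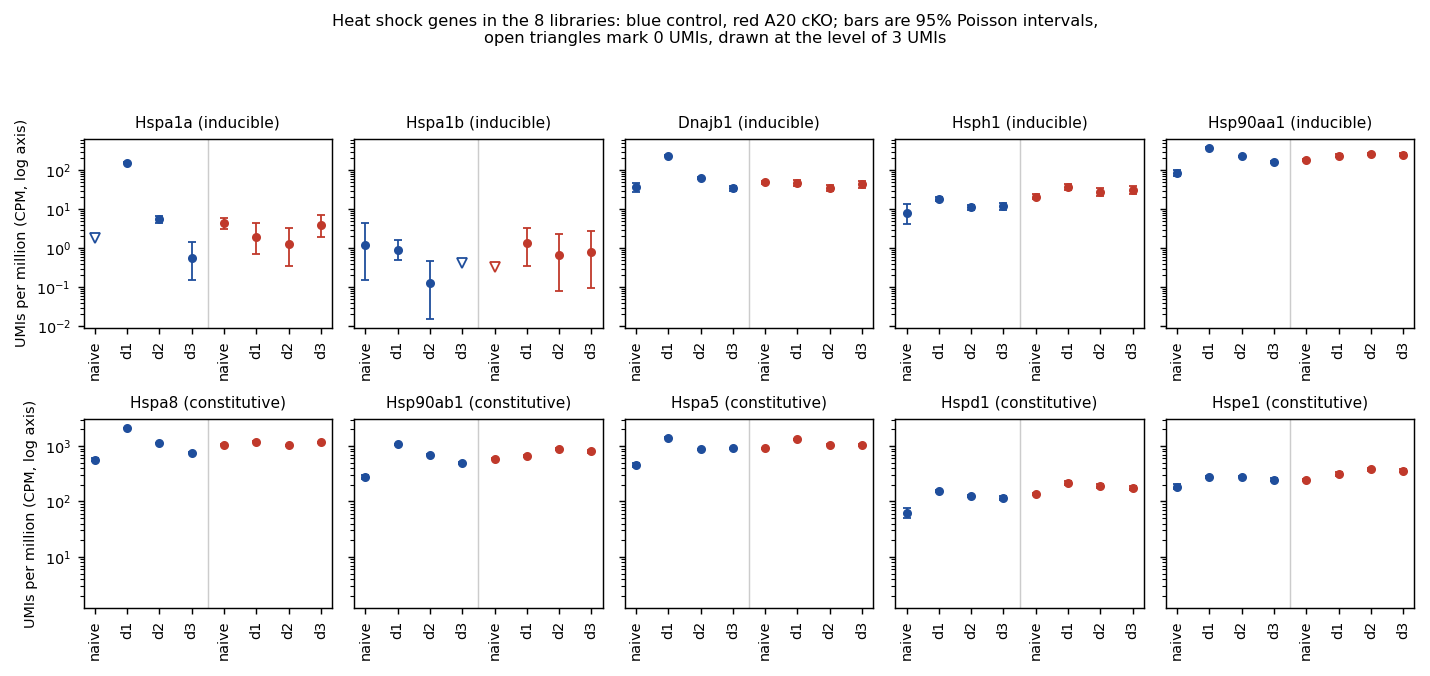
Level of each of the 10 genes (y axis, CPM on a log axis, shared within a row) in the 8 libraries (x axis; d1, d2 and d3 are days 1, 2 and 3 after nerve injury), with bars for 95% Poisson intervals. Hspa1a and Dnajb1 peak in control day 1 at 155 and 238 CPM, Hsph1 is highest in the A20 cKO libraries, and the constitutive genes lie within 2.04-fold to 3.89-fold between their highest and lowest library.

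Among the constitutive members, the cytosolic chaperones were also highest on control day 1. Hspa8 (chr9:40800984-40810087, plus strand), the constitutive Hsp70, was the most counted member, at 565, 2101, 1132 and 754 CPM in control naive and on days 1, 2 and 3 and at 1059.8, 1197, 1029 and 1162 CPM in A20 cKO. Hsp90ab1 (chr17:45567775-45573271, minus strand), the constitutive Hsp90, ran through 277, 1077, 692 and 497 CPM across the control libraries and through 595, 669, 881 and 798 CPM across those of A20 cKO. For both genes control naive was the lowest library and control day 3 the next, each apart from its neighbours. The log2 ratios of day 1 over naive were 1.89 (1.80 to 1.99) for Hspa8 and 1.96 (1.82 to 2.1) for Hsp90ab1.

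Hspa5 (chr2:34771970-34777547, plus strand), the Hsp70 of the endoplasmic reticulum known as BiP, was at 454, 1424, 867 and 912 CPM in control naive and on days 1, 2 and 3. A20 cKO held 910.4, 1318, 1059 and 1032 CPM, with day 1 again highest. Hspa5 was the member whose control day 1 and A20 cKO day 1 levels were closest among those higher in control, with a log2 ratio of -0.11 (-0.16 to -0.06) for A20 cKO over control.

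The mitochondrial chaperonin pair was not highest on control day 1, as Hsph1 was not. Hspd1 (chr1:55077835-55088243, minus strand), its large ring subunit, was at 62.3, 155, 124 and 116 CPM over the control series, against 137, 213, 188 and 175 CPM over the A20 cKO series. Hspe1 (chr1:55088132-55091307, plus strand), its lid, was at 185, 279, 281 and 249 CPM over the former and 239.9, 314, 378 and 357 CPM over the latter. The 3 injured A20 cKO libraries led both orders, and Hspe1 on control days 1 and 2 overlapped. Although the genes share a promoter region, the log2 ratio of control day 1 over naive was 1.30 (1.02 to 1.61) for Hspd1 and 0.59 (0.42 to 0.77) for Hspe1, with intervals that did not overlap.

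Summed, the inducible members were at 131, 789, 306 and 208 CPM in control naive and on days 1, 2 and 3, and at 256, 326, 325 and 331 CPM in A20 cKO. The constitutive sums were 1544, 5035, 3097 and 2528 CPM over the control series, and A20 cKO held 2941, 3711, 3535 and 3522 CPM. Both classes were thus lowest in control naive and highest in control day 1, and within A20 cKO both were lowest in naive. The last point rests on Hsp90aa1 for the inducible class. Without it that sum was 74.3, 88.2, 65.3 and 79.9 CPM in A20 cKO, lowest on day 2, with an interval that overlapped that of naive. On control day 1 the log2 ratio over naive was 2.59 (2.40 to 2.80) for the inducible sum and 1.71 (1.65 to 1.76) for the constitutive sum. On day 3 the ratios were 0.66 (0.46 to 0.88) and 0.71 (0.65 to 0.77), and their intervals overlapped. Without Hsp90aa1 the inducible ratio was 3.17 (2.85 to 3.53) on control day 1 and 0.02 (-0.34 to 0.41) on day 3.

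As a share of the UMIs of all 10 genes, the inducible class took 7.81% of control naive (6.83% to 8.89%). The share was 13.5% a day after injury (13.3% to 13.8%) and stood at 8.98% and 7.59% on control days 2 and 3. The A20 cKO shares were 8.0%, 8.07%, 8.42% and 8.58% from naive to day 3. The control day 1 interval lay apart from those of the other 7 libraries. Counting Hsp90aa1 with the constitutive members lowered every share but left control day 1 highest, at 7.09% against 1.69% to 2.73% elsewhere.

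Between libraries, 9 of the 10 members had at least 100 UMIs in control naive and day 1 together, and 8 of these were at least 2-fold higher on day 1, Hspe1 being the exception. Over all 8866 genes with that many UMIs, 3.82% were at least 2-fold higher, 7.25% at least 2-fold lower, and the median log2 ratio was -0.13. Since the choice of members used the levels in these libraries, nothing is read from that contrast. The same holds for the counts of members in the comparisons that follow. The comparisons over naive share the 1 control naive library. On control day 2, 3 of 8 members (Hsp90aa1, Hsp90ab1 and Hspa8) were still at least 2-fold above naive and 0 at least 2-fold below it, where 5.92% and 6.28% of all genes were. By day 3 it was 1 of 7 (Hspa5, at a log2 ratio of 1.01), with 8.76% of all genes, and 0 were 2-fold lower, with 2.32% of all genes. From day 1 to day 2, 2 of 9 members (Hspa1a and Dnajb1) fell at least 2-fold, against 1.83% of all genes, and 0 rose that much, against 3.8%. Hspa1a passed the minimum of UMIs through control day 1 alone (2185 UMIs against 88 on day 2). The choice of members used these levels as well, so nothing is read from this count either. From day 2 to day 3, 0 of 8 fell or rose at least 2-fold, against 2.69% and 13.1%.

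In A20 cKO, 0 of 8 members differed at least 2-fold from A20 cKO naive in either direction on any day, where between 1.56% and 2.86% of all genes were higher and between 1.39% and 2.65% lower. Ratios were above 0 for 7, 6 and 7 of the 8 on days 1, 2 and 3, where the median of all genes was 0.04, -0.07 and -0.10. Dnajb1 was at -0.07, -0.46 and -0.17, with an interval below 0 on day 2 alone, and without cells that held a Fos UMI, a setting chosen after seeing the data, all 8 were above 0 on day 1. On day 2 the count was 7 relative to the median gene. The widest of these ratios was that of Hsph1 on day 1, at 0.87 (0.52 to 1.22).

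Between the naive libraries, 5 of 8 members (Hsph1, Hsp90aa1, Hsp90ab1, Hspa5 and Hspd1) were at least 2-fold higher in A20 cKO than in control, where 7.43% of all genes were, and 0 were 2-fold lower, where 2.22% were. Dnajb1 and Hspe1 differed least, at 0.42 (0.04 to 0.85) and 0.37 (0.20 to 0.55). This comparison crosses the split between libraries. The members were also chosen on these levels, so nothing is read from the count. Set against control day 3, the only linked control library, A20 cKO naive had 0 of 8 members 2-fold away in either direction (0.964% of all genes higher and 1.49% lower), with Hsph1 at 0.81 (0.44 to 1.20) and Hspa5 within an interval of -0.05 to 0.04.

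At matched days the genotypes differed in more than 1 direction. On day 1, Hspa1a and Dnajb1 were at least 2-fold lower in A20 cKO and Hsph1 at least 2-fold higher, out of 9 members, against 3.25% and 15.5% of all genes. Here too Hspa1a passed the minimum through control day 1 alone (2185 UMIs against 6), and the members were chosen on these levels. Nothing is read from this count. The Dnajb1 log2 ratio was -2.34 (-2.60 to -2.1) and that of Hsph1 1.02 (0.69 to 1.34), or 0.99 without shared barcodes. Hspa8, Hsp90ab1 and Hsp90aa1 were lower by less, at -0.81, -0.69 and -0.66, while Hspd1 was higher, at 0.46 (0.34 to 0.59). Hspe1 was at 0.17 (0.06 to 0.27), but at -0.03 relative to the median gene, which itself lay at 0.20. Hsph1 was the 1 member of 8 at least 2-fold higher in A20 cKO on day 2 as well (1.30, 0.90 to 1.67; 10.7% of all genes) and on day 3 (1.86% of all genes). No member of the 8 was 2-fold lower on these days, against 4.66% and 2.4% of all genes. On day 3, the day whose libraries were both linked, all 8 members were above control day 3, by 0.18 (Hspa5) to 1.42 (Hsph1), where the median of all genes was -0.12. As the members were chosen on these levels, nothing is read from that count. Over the other settings tried at the same minimum of 100 UMIs, the count of members at least 2-fold higher ran from 7 to 8 on control day 1 over naive, from 2 to 5 on day 2, from 0 to 1 on day 3 and from 3 to 5 between the naive libraries.

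**Figure D2:**
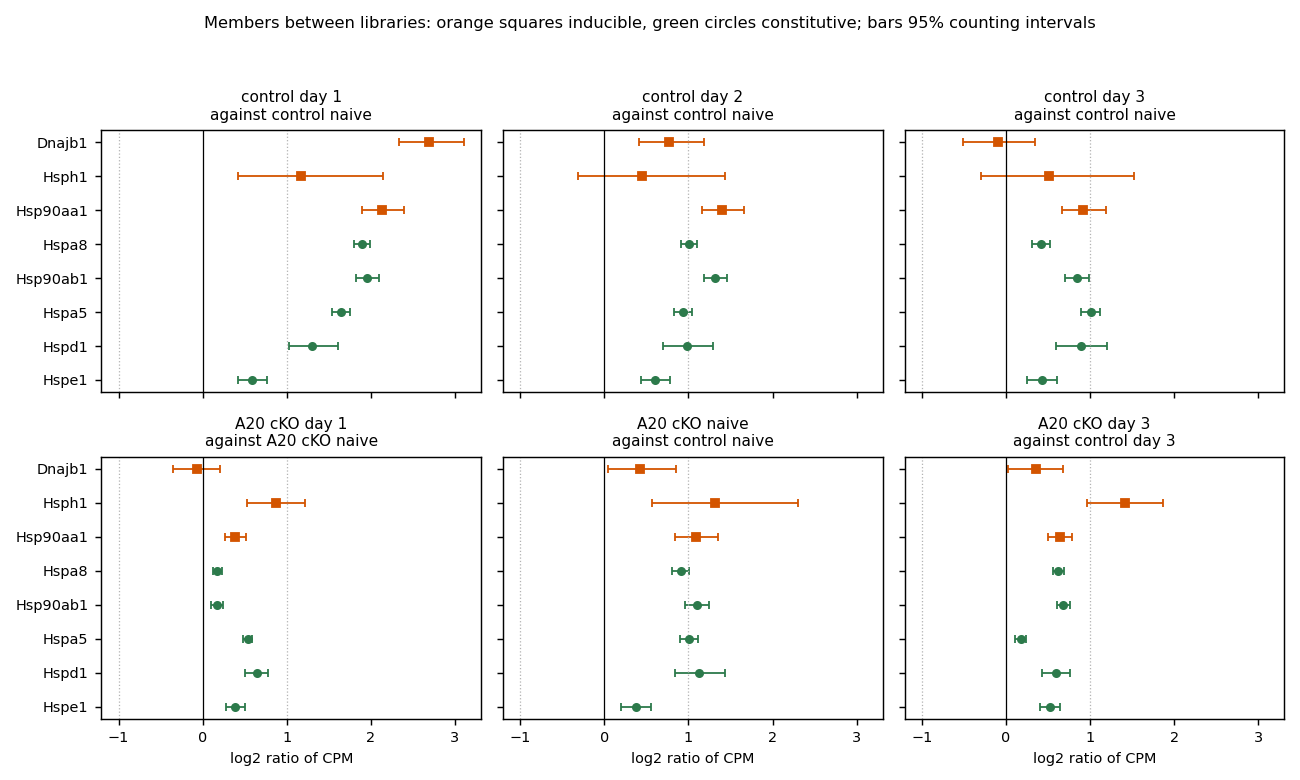
Log2 ratios of CPM (x axis) of the 8 members other than Hspa1a and Hspa1b (rows) for 6 comparisons (panels), with 95% counting intervals; dotted lines mark 2-fold. Dnajb1 has the widest ratio in control day 1 over naive, at 2.70, and lies at -0.07 in the matching A20 cKO comparison, whereas Hsph1 leads both panels of A20 cKO over control, at 1.32 and 1.42.

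Genes of the same systems outside the 10 members passed 2-fold on control day 1 in some lists and in others not. Of 21 co-chaperones with enough UMIs, 3 were at least 2-fold higher on control day 1 than in naive, namely Stip1, which links Hsp70 to Hsp90 (64.2 against 27.8 CPM, log2 ratio 1.19), Hspbp1 (1.14) and Cacybp (1.03), and the median was 0.33. Bag3, a co-chaperone of Hsp70 in selective autophagy and a known target of heat shock factor 1, was at 12.2 CPM on day 1 and 10.5 CPM in naive (log2 ratio 0.18, -0.51 to 1.03). Hsf1, which encodes that factor, was at 29.3 and 27.2 CPM. Among 17 other Hsp40 genes, Dnaja1 (296 against 127 CPM, 1.22) and Dnaja4 (1.18) were at least 2-fold higher. The cytosolic TRiC chaperonin, which folds actin and tubulin, had 2 of 7 measured subunits past 2-fold (Cct5 at 1.06 and Tcp1 at 1.00), but its median was 0.98. For 20 genes of the response to endoplasmic reticulum stress the median was 0.49, with Creld2 (1.22), Calr (1.07) and Atf4 (1.04) at least 2-fold higher and the stress sensor Eif2ak3 at least 2-fold lower (-1.04, on 82 and 19 UMIs). Of 10 mitochondrial chaperones and import factors 0 passed 2-fold, with a median of 0.04, and of 5 further Hsp70 and Hsp110 genes 0 did, with Hspa4 at 0.84 and Hspa9 at 0.75. These counts are to be read beside the 3.82% of all genes above.

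Hspb1, the small heat shock protein also called Hsp27, was singled out after its values were seen, because like Hspa1a it was high in 1 library alone. It had 757 UMIs or 53.8 CPM on control day 1 and 0.617, 0.632 and 1.65 CPM in control naive and on days 2 and 3, a log2 ratio over naive of 5.86 with a wide interval (3.96 to 11.75) because naive held 1 UMI. In A20 cKO it was at 2.80, 1.32, 3.63 and 3.54 CPM. It was 1 of 3 genes with enough UMIs in the list drawn up for small heat shock genes. The other 2, Hspb3 and Hspb11 (the latter listed for its symbol alone), had log2 ratios of -0.69 and -0.20 on control day 1 over naive.

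By rule, the 5 genes with the highest Pearson r of log2(CPM + 1) with the inducible sum over the 8 libraries, out of 3276 genes averaging 50 CPM or more, were Cct8 (0.97), Marcksl1 (0.94), Erp44 (0.94), Mat2a (0.94) and Socs3 (0.93). For Hsp90ab1 they were Erp44 (0.97), Cct8 (0.96), Morf4l2 (0.93), Ptma (0.92) and Marcksl1 (0.91). Cct8 is a TRiC subunit and Erp44 a chaperone of the early secretory pathway. These points share library depth and the single high library, control day 1, and the values are descriptions over 8 points. Myc, which the study followed after injury, reached 0.75 with the inducible sum and Mki67, a proliferation marker, -0.13. The immediate-early genes Fos and Jun reached 0.59 and 0.52. By rank (Spearman), Myc was at 0.43, Fos at 0.33, Jun at 0.24 and Mki67 at -0.07.

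Immediate-early genes, which rise within minutes of many stimuli, handling of tissue among them, moved with the inducible members in part. Summed over 19 genes they were at 1982, 29418, 2968 and 4479 CPM in control naive and on days 1, 2 and 3, and at 6822, 1916, 1710.0 and 5545 CPM in A20 cKO. On control day 1, 18 of the 18 with enough UMIs were at least 2-fold above naive, Fos reaching 4105 CPM against 20.4 CPM. Fos was next highest in A20 cKO naive and day 3, at 508 and 504 CPM, where Hspa1a was at 4.37 and 3.93 CPM and Dnajb1 at 49.2 and 43.7 CPM. Fos was lowest in A20 cKO day 1, at 13.2 CPM, followed by control naive and by A20 cKO day 2 at 21.1 CPM. Hsph1 was at 38.0 and 27.7 CPM in those A20 cKO libraries, above its 18.7 CPM on control day 1. The part of the immediate-early genes in the members' levels was not tested.

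**Figure D3:**
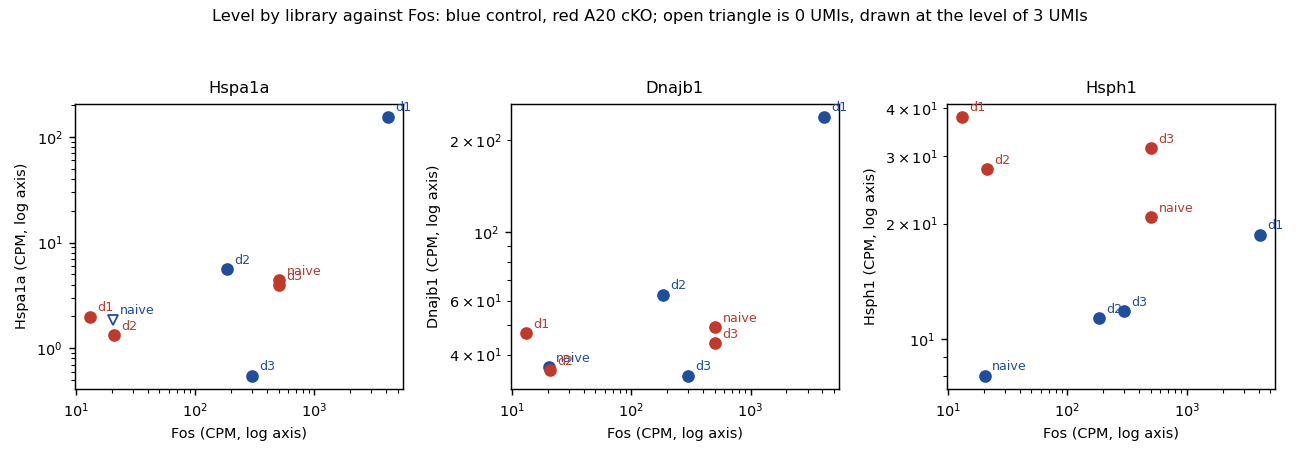
Level of Hspa1a, Dnajb1 and Hsph1 (y axes) against that of Fos (x axis) in the 8 libraries, all in CPM on log axes. Control day 1 is highest for Fos at 4105 CPM and for Hspa1a and Dnajb1, while Hsph1 is highest in A20 cKO day 1, the library with the least Fos at 13.2 CPM.

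Within control day 1, Hspa1a was spread unevenly over cells. Of 3323 kept cells, 2385 (71.8%) had no Hspa1a UMI, 581 had 1, 244 had 2 to 4 and 113 (3.40%) had 5 or more, up to 25 in a single cell. The 10% of cells with most of it held 71.2% of its UMIs, against 41.6% for Dnajb1, 34.2% for Hsp90aa1 and 24.3% for Hspa8, and 100% for the sparse Hsph1 and Hspa1b, which were seen in fewer than 10% of cells. After each cell was drawn down to 2000 UMIs, which 3225 cells allowed and 98 did not, the variance of Hspa1a over cells was 2.28 times its mean. This was the highest ratio of the 10 members. It was 1.29 for Dnajb1, 1.40 for Hspa8, 1.56 for Hspa5 and close to 1 for Hspd1 (1.04) and Hspe1 (1.05), 1 being the value that counting alone gives at a constant level.

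**Figure D4:**
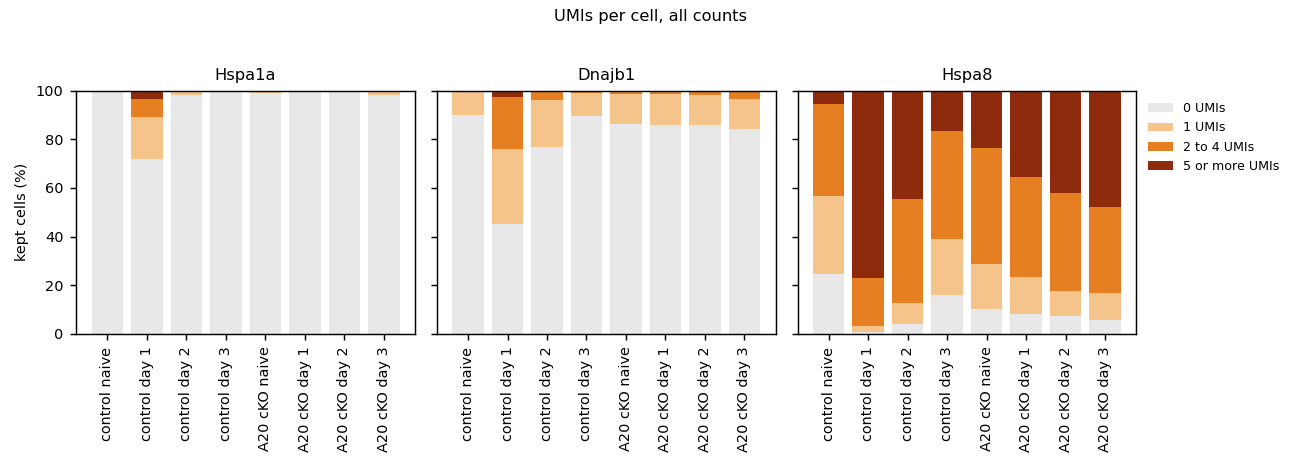
Share of kept cells (y axis, percent) with 0, 1, 2 to 4, or 5 or more UMIs of Hspa1a, Dnajb1 and Hspa8 in each library, all counts. Hspa1a is found in 28.2% of control day 1 cells and in at most 1.61% elsewhere, Dnajb1 in 54.9% there, and Hspa8 in 75.2% to 99.3% of cells in every library.

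At equal depth of 2000 UMIs a cell, Hspa1a was found in 17.2% of control day 1 cells (16% to 18.6%) and in at most 0.977% of the cells of another library; in control naive it was 0 of 502 cells, which allows up to 0.598% by the limit of 3 counts. Without the draw the shares were 28.2% and at most 1.61%. Dnajb1 was found in 35.2% of drawn cells on control day 1 and 6.39% to 12% elsewhere, and Hsph1 in 1.92% to 5.90% in all libraries. The sort left no cell type known to lack these genes, so the share that free RNA gives could not be set beside them.

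Drawn cells with and without an Hspa1a UMI on control day 1 differed little in the other members. Before the draw 28.2% of cells held Hspa1a, so some cells counted as without it had Hspa1a UMIs that were not drawn. How far this narrowed the ratios was not tested. In the 556 drawn cells with Hspa1a against the 2669 without, the log2 ratio was 0.34 for Hsp90aa1 (433 against 344 CPM, 0.19 to 0.48), 0.24 for Hsp90ab1 (0.16 to 0.33), 0.18 for Hspa5 (0.10 to 0.26) and 0.18 for Hspa8 (0.11 to 0.24). For its co-chaperones Dnajb1 and Hsph1 it was 0.14 (-0.06 to 0.32) and 0.21 (-0.54 to 0.85), and for Hspe1 0.02 (-0.17 to 0.19). Fos was 0.24 higher in cells with Hspa1a (0.19 to 0.28), and P2ry12, a microglia marker, lower (log2 ratio -0.13, -0.19 to -0.07). Day 1 cells without a drawn Hspa1a UMI, some of which held Hspa1a before the draw, were set against control naive cells drawn alike. Their log2 ratio was 2.69 for Dnajb1 (235 against 35.9 CPM), 2.03 for Hsp90aa1, 1.82 for Hsp90ab1, 1.80 for Hspa8, 1.57 for Hspa5 and 1.55 for Hspd1. It was 0.65 for Hspe1 (0.43 to 0.90) and 0.67 for Hsph1, whose interval included 0 (-0.17 to 1.78), and Hspa1b was too sparse to compare.

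Cells were also split by Fos, again at 2000 UMIs. Hspa1a was higher in cells with Fos in all 3 libraries where it could be compared, by 1.31 on control day 1 (0.22 to 3.07, only 48 cells being without Fos), 1.10 on control day 2 (0.08 to 2.06) and 1.40 in A20 cKO naive (0.17 to 2.80). The last 2 rest on 40 and 25 drawn Hspa1a UMIs. These intervals do not allow for its uneven spread over cells (variance over mean 2.28, 1.39 and 1.39), so they are too narrow. Dnajb1 was above 0 in 5 of 5 libraries, by 0.15 to 1.39, with 2 intervals above 0. For Hspa8 the ratios were -0.06 to 0.34 and for Hspe1 -0.15 to 0.01. With all counts of each cell Hspa1a was above 0 in 5 of 5 libraries, by 1.21 to 3.06, but only 2 intervals lay above 0. It was higher by 1.61 on control day 2 and 1.38 in A20 cKO naive. Control day 1 then had only 10 cells without Fos. Hsph1 was then above 0 in 5 of 7 libraries, with 1 interval above 0.

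A further division was by the cell cycle, and Hsp90aa1 was the member with the highest median ratio in G2/M cells. Cells in which 3 or more of a set of 18 core G2/M genes were seen formed 0.0930% to 12.8% of the drawn cells of a library, and 6 libraries had at least 20 of them. In these 6, Hsp90aa1 was higher in G2/M cells than in cells of neither class by 1.06 on control day 2 (376 against 180.2 CPM), 1.51 on control day 3 and 1.5, 1.55, 0.84 and 1.38 in A20 cKO naive and on days 1, 2 and 3, and every interval lay above 0. The variance of drawn Hsp90aa1 over cells was 1.10 to 1.87 times its mean in these libraries. On control day 3 a single cell held 20 of its 546 drawn UMIs. The intervals do not allow for this spread, so they are too narrow. Those given below for other members and for S-class cells do not allow for spread over cells either. Hsp90ab1, the constitutive partner of Hsp90aa1, was at -0.19 to 0.28, with 1 interval above 0, Hspa8 at 0.03 to 0.29 and Dnajb1 at 0.04 to 1.00. Hspa5 was at -0.09 to 0.36, with 3 intervals above 0, and Hspd1 at -0.06 to 0.58, with 1. Hspe1 was at -0.63 to 0.37, with 1 interval below 0, and Hsph1 at -0.91 to 1.41, with 0 intervals above 0. With all counts of each cell, where G2/M cells are the deeper ones (a median of 5618 against 3469 UMIs on control day 2), Hsp90aa1 was at 0.84 to 1.35, again with all 6 intervals above 0, and Hsp90ab1 at -0.02 to 0.44 with 4 intervals above 0. Hspa5 then had 5 intervals above 0, at -0.05 to 0.58, and Hspd1 had 4, at 0.08 to 0.68. Hspe1 had 3 above 0 and 1 below. The cut leaves cells near it: on control day 2, 175 cells had exactly 3 core G2/M genes and 453 had 2. The class was small on A20 cKO day 1, where 5 cells had exactly 3 such genes and 20 had more.

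In S-class cells, those with at least 3 of 12 core S genes and not in the G2/M class, several members were above cells of neither class in all 6 libraries with at least 20 such cells. Hspa8 was higher by 0.31 to 0.60 and Hsp90ab1 by 0.39 to 0.92, with all 6 intervals above 0 for each. Hsp90aa1, at 0.32 to 0.98, Hspa5, at 0.02 to 0.42, and Hspe1, at 0.06 to 0.73, were above 0 in all 6 as well, with 3, 2 and 1 intervals above 0. With all counts, which gave 7 such libraries, Hsp90aa1 had all 7 intervals above 0, at 0.46 to 1.14, as had Hspa8 and Hsp90ab1. Control day 1 had 52 S-class and 3 G2/M cells of 3225, so at this cut its members' levels came almost wholly from cells of neither class. That does not place these cells outside the cycle. On control day 1, 193 drawn cells had exactly 2 core S genes. A core S UMI was found in 34.4% of drawn cells there, against 15.7% in control naive. The study, by its own scoring of cycle markers, placed a substantial portion of day 1 microglia in S phase.

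**Figure D5:**
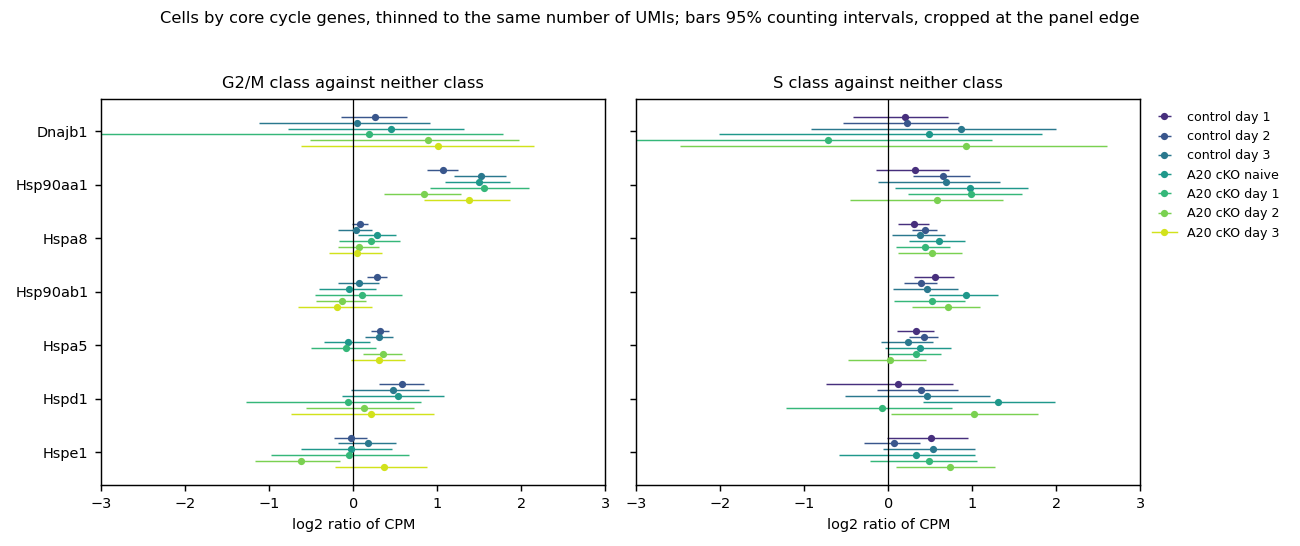
Log2 ratio of CPM (x axis) between G2/M-class or S-class cells and cells of neither class, for 7 members (rows) in each library with at least 20 cells of the class (colours), at 2000 UMIs per cell, with 95% counting intervals. Hsp90aa1 lies at 0.84 to 1.55 in G2/M cells of all 6 libraries, Hsp90ab1 at -0.19 to 0.28 there and at 0.39 to 0.92 in S-class cells.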

How the data were processed

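The authors deposited, per the file headers and labels, 1 table of UMI counts per library in 10x format, as raw whole numbers per gene and cell; the submitters' processing notes name Cell Ranger 2.1.1 and mm10. How reads matching more than 1 gene were treated is not given in the sources used here. Cells with at least 1000 UMIs, 500 genes and at most 10% mitochondrial UMIs were kept (14626 of 14883); the sort excluded doublets and no doublet caller was run. Member UMIs were summed per library and scaled to CPM, with 0.5 UMI added for log2 ratios, in Python 3.11.15 with numpy 2.4.6, scipy 1.17.1 and pandas 2.3.3. With 1 library per group there was no test. Ratios were counted for genes with at least 100 UMIs in both libraries together. Cells were drawn to 2000 UMIs for shares, pairs and classes, leaving 13691; classes were also formed on all counts. The ratio intervals and the drawing of cells were tested on simulated counts with no spread beyond counting, and the other steps were not. The 10 members and all gene lists were chosen with earlier results of these data known. The text names the members, for each list the genes past 2-fold and a few set before, and the 5 genes most like a member pattern. Sequences came from RefSeq and GENCODE annotation of GRCm38.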

Additional observations from a re-analysis of the deposited data

Results flagged for a closer look

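For 2 of the inducible genes the change from naive to day 2 after injury went up in control and down in A20 cKO, which is what drew attention to them; with 1 library per group the difference was not tested. The log2 ratio of Dnajb1 was 0.77 in control and -0.46 in A20 cKO, on 993 and 59 UMIs and on 108 and 439 UMIs. For Hspa1a the ratio was 4.18 in control, a value that depends on the 0.5 UMI added because control naive had 0 UMIs, and -1.58 in A20 cKO, on 4 and 39 UMIs.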

How the results depend on the processing

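No paired analysis was possible because each group was 1 library and no result came from a test. Of 1056 recomputed ratios of members and sums between libraries 22 turned their sign, none of them at 2-fold or more as first given and none above 0.36 in size. Among these, Hspe1 went to -0.03 for A20 cKO day 1 over control day 1 and Hspa8 to 0.03 for A20 cKO day 2 over A20 cKO naive, both relative to the median gene. For ratios between classes of cells, set out on all counts and given in the text on drawn cells with all counts beside them, 60 of 165 moved beyond their counting interval between the 2 and 16 turned their sign. Drawing cells to 1000 UMIs moved 67 of 80 shares of cells, and no drawing moved 66, since fewer or more UMIs are then seen per cell. A minimum of 20 UMIs moved 24 of 26 counts of all genes past 2-fold, since more sparse genes enter. The 16 compared sums of inducible and constitutive members moved by less than their counting interval under a stricter cell filter, no cell filter, no shared barcodes, or without the 2% of cells with most UMIs. Relative to the median gene, the constitutive log2 ratios became 1.83, 1.12 and 0.64 on control days 1, 2 and 3 over naive, 0.30, 0.34 and 0.36 on A20 cKO days 1, 2 and 3 over A20 cKO naive, and 0.60 for A20 cKO over control on day 3. Scaled without mitochondrial and ribosomal protein genes, the constitutive ratios became 0.33 and 0.31 on A20 cKO days 2 and 3, and 0.52 for A20 cKO over control on day 3. Leaving out cells with a Fos UMI, a setting chosen after seeing the data, left 10 cells of control day 1 and gave 2.14 (inducible) and 1.31 (constitutive) there, 0.46 for the inducible sum on A20 cKO day 2, and for the constitutive sum 0.93 and 0.65 on control days 2 and 3, 0.38, 0.33 and 0.18 on A20 cKO days 1, 2 and 3, 0.86 between the naive libraries and 0.40 between genotypes on day 3. With Hsp90aa1 counted as constitutive, the inducible share was 2.73%, 7.09%, 2.34% and 1.70% from control naive to day 3 and 2.33%, 2.18%, 1.69% and 2.07% from A20 cKO naive to day 3, since fewer UMIs then count as inducible. Depth limits Hspa1a and Hspa1b most: outside control days 1 and 2 no library had more than 39 UMIs of either.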
